A study of Mus musculus with 25 samples.

Results

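The immediate early transcription factors examined here were 10 genes, Fos, Fosb, Fosl2, Jun, Junb, Egr1, Egr2, Atf3, Ier2 and Nr4a1. They were chosen by name, and their members were the probes that carry these names on the array. Each of the 10 genes had at least 1 probe on the array, 15 probes in all of 56605 distinct gene probes, and 13 of these probes, covering all 10 genes, passed the filter on dim spots. The tissue was perigonadal white adipose tissue (pgWAT), the fat pad beside the epididymis, of 25 male C57BL6/J mice with 1 one-colour array per mouse.

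Mice on chow were fasted for 24 h and then refed for 18 h with 20% glucose in the drinking water, which engages the glucose-responsive transcription factor ChREBP (gene Mlxipl). The ChREBPβ KO group (6 arrays) lacked exon 1b of Mlxipl, which starts the β isoform, in the whole body after CRISPR/Cas9 editing of fertilized oocytes, and ChREBPβ WT (7 arrays) were wild-type mice of that line. The total ChREBP KO group (5 arrays) was Mlxipl-null, without ChREBPα and ChREBPβ, and total ChREBP WT (7 arrays) were wild-type mice of that second line. The study derived 2 edited lines on this background, and the labels do not say which of them an animal came from. Ages were not given in the sources used here. Mouse line and everything that goes with it cannot be told apart in comparisons across the lines.

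Immediate early genes are transcribed within minutes of a stimulus such as a growth factor, insulin, cyclic AMP, cell stress or handling of a tissue, without new protein synthesis, and their transcripts are short-lived. FOS and JUN family proteins pair through leucine zippers to form AP-1, and ATF3 belongs to the same bZIP class. EGR1 and EGR2 are zinc finger factors, NR4A1 is an orphan nuclear receptor, and IER2 is a small nuclear protein of the same early wave. In fat, stromal and immune cells as well as adipocytes can switch these genes on, so in a whole fat pad a higher level in some cells and a larger number of such cells cannot be told apart.

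Many of their promoters carry the cyclic AMP response element, whose core reads TGACG. The 250 bases before the start site are shown for Fos, Fosb and Nr4a1, the genes that differed most between the wild-type groups below. They come from RefSeq on build GRCm38.p6, written 5′ to 3′ along the gene, with each TGACG in capitals on either strand (the opposite strand reads CGTCA): Fos at chr12:85473640-85473889 on the plus strand, Fosb at chr7:19310046-19310295 on the minus strand and Nr4a1 at chr15:101266596-101266845 on the plus strand.
Fos: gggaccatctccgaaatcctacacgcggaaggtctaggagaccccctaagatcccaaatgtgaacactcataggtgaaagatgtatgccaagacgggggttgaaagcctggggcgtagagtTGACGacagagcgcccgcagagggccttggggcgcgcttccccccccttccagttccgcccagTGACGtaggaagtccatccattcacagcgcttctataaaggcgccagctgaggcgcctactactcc
Fosb: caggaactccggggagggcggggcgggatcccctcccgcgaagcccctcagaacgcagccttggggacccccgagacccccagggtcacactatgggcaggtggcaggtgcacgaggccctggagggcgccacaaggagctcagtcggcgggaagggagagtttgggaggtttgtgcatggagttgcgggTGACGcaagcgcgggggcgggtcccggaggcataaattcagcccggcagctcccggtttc
Nr4a1: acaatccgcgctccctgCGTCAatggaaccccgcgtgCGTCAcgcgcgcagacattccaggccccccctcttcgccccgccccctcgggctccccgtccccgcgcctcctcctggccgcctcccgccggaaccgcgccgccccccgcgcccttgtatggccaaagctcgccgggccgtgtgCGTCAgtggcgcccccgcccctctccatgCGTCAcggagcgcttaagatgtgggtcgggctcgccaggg
The Fos window held 2 copies, whose first bases lay 129 and 66 bases before the start site, and a TATAAA box 33 bases before it. Fosb held 1 copy at 60 bases and Nr4a1 held 4, all on the opposite strand, the nearest with its farther end 40 bases before the start.

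Of the 8 members with an entry in that table, in 12 windows since Egr2 has several start sites, 6 held TGACG (Fos, Fosb, Junb, Egr2, Atf3 and Nr4a1), compared with 17.8% of all 32851 promoter windows of that length, searched on both strands. Fosl2 and Jun held none. Egr1 and Ier2 had no entry and were not searched. Among the 8 members searched, the CArG box, to which serum response factor binds, lay within these 250 bases for Egr2 only, against 1.47% of all windows. The AP-1 motif TGAGTCA lay in none of their windows, against 4.46% of all windows, and TATAAA in that of Fos, against 12.4%. These matches describe the letters in the window and say nothing of which factor was bound.

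Members differed widely in level. The values below are log2 intensities after quantile normalization, which put the arrays on 1 common distribution, so that a step of 1 is a 2-fold change in intensity. Levels of different probes cannot be ranked against each other as transcript abundance. The raw median intensity of the brightest probe of each gene ranged from 87.5 on the dimmest array for Fosb to 15840 on the brightest for Fos, with local background at 15 to 22, and each of these 10 probes was well above background on all 25 arrays. Of the 2 probes that did not pass, a second Fosb probe was well above background on 4 WT arrays and 1 KO array of the total ChREBP line, with raw intensities of 14.5 to 73, and another Junb probe on 0 arrays.

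As a check of the groups, Mlxipl itself differed between KO and WT by -1.75 on the log2 scale (adjusted p 3.17e-08) in the total ChREBP line and by -0.73 (adjusted p 0.140) in the ChREBPβ line. Between the wild types Mlxipl was 0.89 higher in total ChREBP WT (adjusted p 0.000105). Array brightness was alike, with a median raw intensity of 84 to 127. Arrays of 1 group correlated at 0.971 to 0.997 over all tested probes. Liver transcripts were present in the ChREBPβ WT arrays and much lower in the total ChREBP groups, as described with the results they touch.

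The first feature of these genes was how unevenly they were expressed from mouse to mouse. In the total ChREBP line a few mice had high levels of nearly all of them at once. Taking the mean over the 10 members of the deviation from each gene's median over all arrays, total ChREBP KO replicate 7 stood highest at 2.43 log2 units, followed by total ChREBP WT replicate 3 at 1.81, replicate 2 at 1.103 and replicate 4 at 0.80. The lowest were ChREBPβ WT replicates 8 and 4, at -0.52 and -0.51. Replicate 7 was the highest of the 5 total ChREBP KO arrays for 10 of 10 members, and replicate 3 the highest of the 7 total ChREBP WT arrays for 8 of 10, the exceptions being Fosl2 and Egr2.

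**Figure D1:**
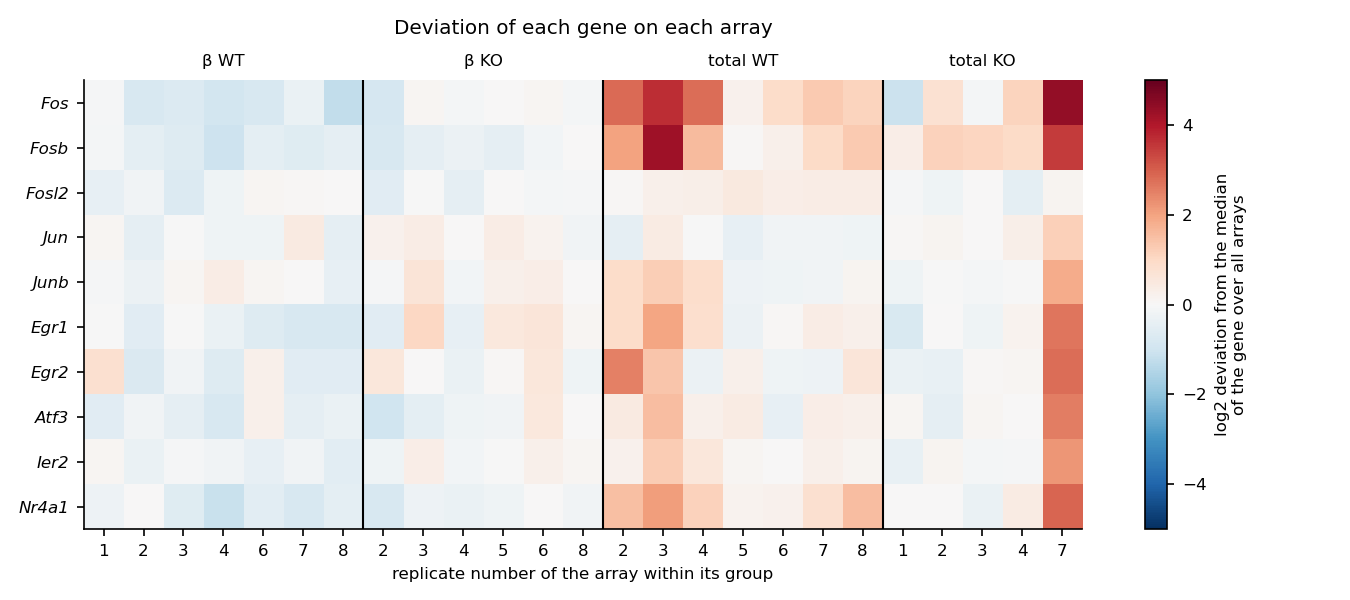
Heat map of the 10 genes (rows) on the 25 arrays (columns, grouped and numbered by replicate), coloured by the log2 deviation from the gene's median over all arrays. The column of total ChREBP KO replicate 7 is red for every gene but Fosl2, which is pale, and the mean deviation falls from 2.43 there to 1.81, 1.103 and 0.80 in total ChREBP WT replicates 3, 2 and 4.

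These high arrays were spread over the technical batches. The 4 arrays lay in 4 different wash batches, and each wash batch held all 4 groups. Total ChREBP WT replicate 3 shared its slide with total ChREBP KO replicate 3, whose Fos level was 9.70 against 13.49 on the neighbour. Total ChREBP WT replicate 2 shared its slide with total ChREBP KO replicate 1, with Fos at 12.62 and 8.72. Total ChREBP KO replicate 7 had the lowest median raw intensity of the arrays, 84, with 74.1% of spots well above background.

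Fos encodes the inducible partner in the classical AP-1 dimer. Its probe lay at chr12:86818118-86818177 (mm9, the build of the array's coordinates, for which no annotation was used here). In ChREBPβ WT the log2 level was 8.59 at the lowest, 9.02 at the median and 9.76 at the highest, and in ChREBPβ KO it was 8.95, 9.77 and 9.93. In total ChREBP WT it was 10.01, 11.13 and 13.49. The 5 total ChREBP KO arrays read 8.72, 9.70, 10.57, 10.92 and 14.19, a 44.3-fold range between the lowest and the highest. All total ChREBP WT arrays thus lay above all arrays of both ChREBPβ groups, while 2 of the 5 total ChREBP KO arrays lay within the ChREBPβ range and 1 lay above the highest wild-type array.

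Fosb, a relative of Fos with the same partners, followed the same order. Its levels ran from 6.56 through a median of 7.13 to 7.50 in ChREBPβ WT, and from 6.80 through 7.25 to 7.61 in ChREBPβ KO. In total ChREBP WT they ran from 7.66 through 8.92 to 11.84. The total ChREBP KO arrays read 7.96, 8.58, 8.69, 8.77 and 11.11. Both total ChREBP groups lay above both ChREBPβ groups on every array, and the probe was at chr7:19888168-19888227.

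Nr4a1 (chr15:101105071-101105130), the receptor also known as Nur77, ranged from 9.96 through 10.51 to 11.08 in ChREBPβ WT. In ChREBPβ KO the range was 10.27, 10.83 and 11.08. Total ChREBP WT arrays ran from 11.25 through 12.20 to 13.16. The 5 total ChREBP KO arrays read 10.73, 11.05, 11.07, 11.47 and 13.98, so that 4 of them lay at or below 11.47 and 1 lay above every other array of the study.

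After removal of group and wash batch, Fosl2 and Jun varied least of the members. In ChREBPβ WT alone, the SD of Ier2 (0.21) and Junb (0.26) was below that of Fosl2 (0.28) and Jun (0.33). Fosl2 (chr5:32460076-32460135), which encodes the FOS relative Fra-2, ran from 10.65 through 11.14 to 11.41 in ChREBPβ WT and from 10.74 through 11.25 to 11.34 in ChREBPβ KO. In total ChREBP WT it ran from 11.39 through 11.65 to 11.80, and the total ChREBP KO arrays read 10.84, 11.12, 11.25, 11.35 and 11.46. Of the 7 total ChREBP WT arrays, 6 lay above every array of the other groups. Jun (chr4:94716928-94716987), the main partner of FOS, ran from 12.38 through 12.64 to 13.31 in ChREBPβ WT, from 12.69 through 13.04 to 13.22 in ChREBPβ KO, and from 12.40 through 12.68 to 13.24 in total ChREBP WT. The total ChREBP KO arrays read 12.84, 12.91, 12.998, 13.14 and 14.05. The medians of both KO groups thus lay above those of both WT groups, the ranges overlapped, and 1 total ChREBP KO array stood apart.

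For each of the other 5 members total ChREBP KO replicate 7 was the highest of the 25 arrays. Egr1 had medians of 10.45 and 11.34 in WT and KO of the ChREBPβ line and of 11.41 and 11.03 in those of the total ChREBP line, where the highest array reached 13.71. Egr2, the EGR family member known from myelin and from adipogenesis, had medians of 8.57, 9.16, 9.36 and 9.19 in the same order, with total ChREBP WT replicate 2 at 11.67 and total ChREBP KO replicate 7 at 11.94. Junb, a JUN family member, had medians of 12.01, 12.09, 12.11 and 11.94, and its highest array was again total ChREBP KO replicate 7, at 13.84. Atf3, a stress-induced bZIP factor, had medians of 8.08, 8.36, 8.86 and 8.62 and a highest array of 11.11. Ier2 had medians of 9.66, 9.89, 10.08 and 9.80 and a highest array of 12.05.

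**Figure D2:**
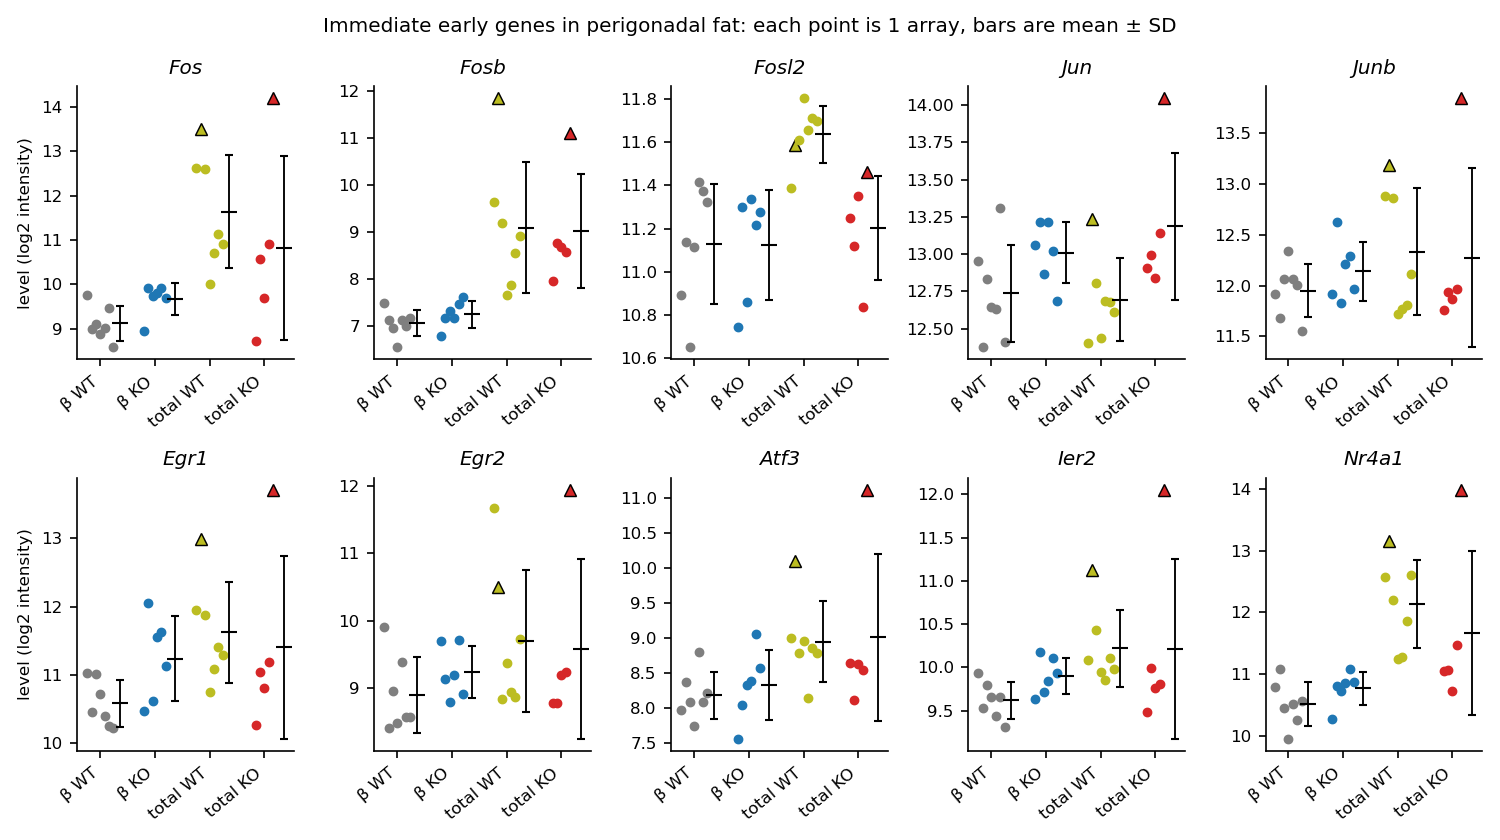
Log2 level of the brightest probe of each gene on each array (points), by group, with the group mean ± SD (bars at the right of each group); the vertical scale differs between panels. Triangles mark total ChREBP WT replicate 3 and total ChREBP KO replicate 7, which reach 13.49 and 14.19 for Fos, against 9.76 and 9.93 for the highest ChREBPβ WT and ChREBPβ KO arrays.

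The spread within groups put a number on this pattern. Most members varied more than the typical probe in both lines. In the ChREBPβ line the SD of Fos was 0.39 in WT and 0.37 in KO, and in the total ChREBP line it was 1.27 and 2.07, whereas the median SD over all tested probes was 0.19, 0.17, 0.17 and 0.14. In ChREBPβ KO the SD of Egr1 was 0.62, above that of 95.1% of all probes, and that of Atf3 was 0.50 (93.3%), and in ChREBPβ WT the SD of Egr2 was 0.56 (93.3%). After removal of group and wash batch, the residual SD of Fos, 1.19, was above that of 98.5% of all tested probes. Fosb (97.5%), Egr2 (97.4%), Egr1 (96.6%), Nr4a1 (96.4%), Atf3 (95.9%), Junb (94.7%) and Ier2 (94.0%) were also among the most variable probes. Jun, at 81.8%, and Fosl2, at 64.0%, were less so. In total ChREBP WT the SD of Fosl2 was 0.13, below the median of all probes. In ChREBPβ WT, ChREBPβ KO and total ChREBP KO it was above that of 75.2%, 75.4% and 83.4% of all probes.

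**Figure D3:**
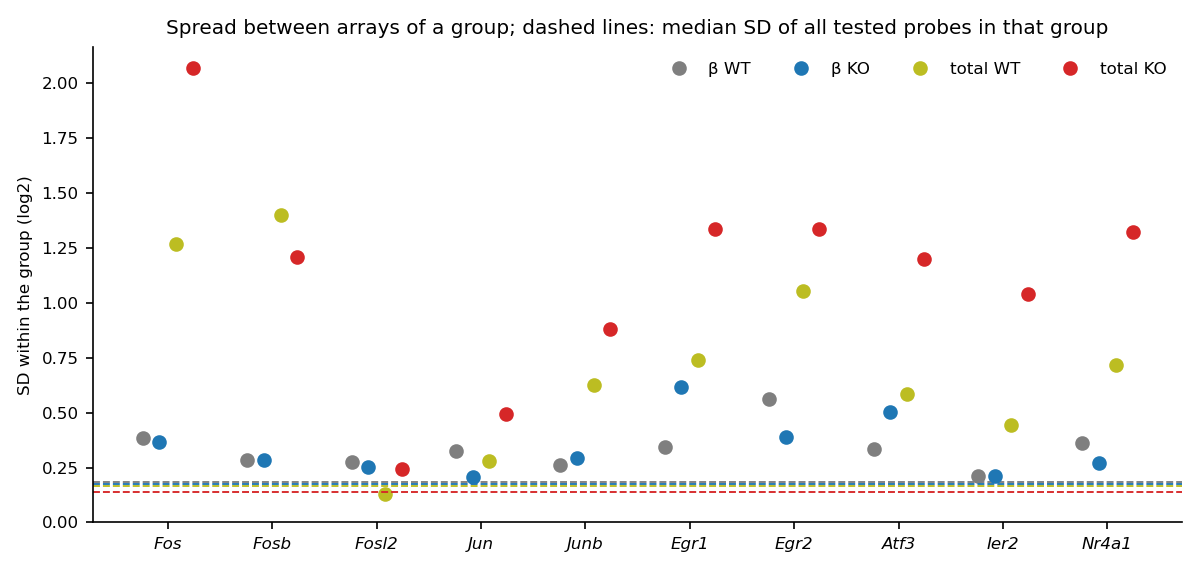
SD between the arrays of a group (vertical axis, log2 units) for each of the 10 genes (horizontal axis) in the 4 groups (colours), with the median SD of all tested probes per group as dashed lines. For Fos the SD is 0.39 and 0.37 in the ChREBPβ line against 1.27 and 2.07 in the total ChREBP line, while Fosl2 stays near the dashed lines in all groups.

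The members moved together from mouse to mouse, apart from Fosl2. Over the 25 arrays, with group and wash batch removed, the 45 pairs of members had a median Pearson r of 0.74 (lowest -0.32, highest 0.93) and a median Spearman rho of 0.63, and r was above 0 for 40 pairs. These values are a description, since all points share the same arrays and normalization. Without total ChREBP KO replicate 7 and total ChREBP WT replicate 3, the arrays farthest from the median, the median r was 0.36. Within the total ChREBP line (12 arrays) it was 0.87 and within the ChREBPβ line (13 arrays) 0.20, with pairs from -0.70 to 0.84. Fos and Egr1, the most alike pair in the total ChREBP line, had r = 0.98 there and 0.59 in the ChREBPβ line.

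**Figure D4:**
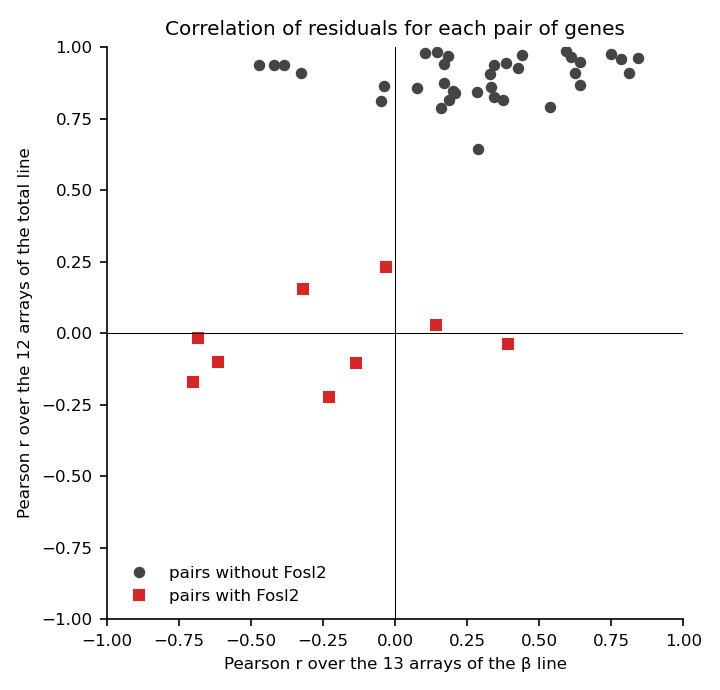
Pearson r of residuals for each pair of the 10 genes over the 13 arrays of the ChREBPβ line (horizontal axis) and over the 12 arrays of the total ChREBP line (vertical axis). Pairs without Fosl2 (grey circles) lie high on the vertical axis and spread from negative to positive values on the horizontal one, with medians over all 45 pairs of 0.87 and 0.20, and pairs with Fosl2 (red squares) lie between -0.23 and 0.23 on the vertical axis.

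The genes whose residuals were most like those of Fos, among 18613 named genes over the 25 arrays, were Zfp36 (r = 0.84), Ccn1 (0.79), Il1b (0.77), Csrnp1 (0.75) and Oxnad1 (0.75). For the mean of the 10 members they were Zfp36 (0.90), Ccn1 (0.86), Egr3 (0.85), Nr4a2 (0.84) and Il1b (0.84). Among all these genes, the 99th percentile of r was 0.48 for both measures. Zfp36 encodes an RNA-binding protein that hastens decay of cytokine mRNAs, Ccn1 (named Cyr61 on the array) a secreted matrix protein, and Il1b the cytokine interleukin-1β. Egr3 and Nr4a2 are family relatives of the members. Without the 2 farthest arrays, r with the mean of the members fell to between 0.62 (Egr3) and 0.78 (Zfp36).

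Lack of ChREBPβ alone was the first comparison. In ChREBPβ KO against ChREBPβ WT, 0 of 10 members were called at a limma adjusted p under 0.05, with 1 (Jun) at an unadjusted p under 0.05. Over all 39619 tested probes, 0.00505% were called and 9.21% had an unadjusted p under 0.05. The fitted log2 difference was above 0 for 10 of 10 members, with a median of 0.30 against 0.02 over all probes, and since the members move together these are not independent signs. Among them Fosl2 was at 0.0077 (SE 0.11), with group means of 11.13 in WT and 11.123 in KO, and its sign changed with the processing. For Jun the difference was 0.32 (SE 0.15, unadjusted p 0.0436, adjusted p 0.528). For Egr1 the difference was 0.71 (95% interval -0.15 to 1.56, adjusted p 0.639) and for Fos 0.64 (-0.66 to 1.94, adjusted p 0.826). These intervals rest on a spread shared by all 4 groups, which is wider in the total ChREBP line (Fos SD 1.27 and 2.07, against 0.39 and 0.37 here). Fitted with only the groups compared, 4 members had an unadjusted limma p under 0.05, and 0 probes were called. The share of all probes at that unadjusted p was not computed there, so the count of 4 cannot be read as a result about these genes. The KO and WT arrays overlapped for every member, where 0.0656% of all probes had groups that did not overlap.

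Lack of both isoforms gave a mixed result. Between KO and WT of the total ChREBP line, 2 of 10 members were called, 1 lower (Fosl2) and 1 higher (Jun), where 8.95% of all probes were called, 3.47% as lower and 5.48% as higher. At an unadjusted p under 0.05 these were also the 2 members counted, against 20.4% of all probes. Fosl2 was lower, at -0.40 on the log2 scale (SE 0.12, adjusted p 0.0328, a fold of 0.758), and the difference was negative within each wash batch, at -0.73, -0.23, -0.22 and -0.29. Jun was higher by 0.51 (SE 0.16, adjusted p 0.0476, 1.42-fold), and within wash batches 1 to 4 the difference was 0.45, -0.39, 1.36 and 0.40. Groups overlapped for both genes and for the other 8 members, whereas 6.92% of all probes had groups that did not.

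The call of Jun was the less stable one. Without total ChREBP KO replicate 7 its difference was 0.33 (adjusted p 0.231), without total ChREBP WT replicate 3 it was 0.65 (adjusted p 0.00567), and without both it was 0.47 (adjusted p 0.0302). Over the 25 fits that left out 1 array each, Jun was called in 5, with an adjusted p of 0.00567 to 0.231. Fosl2's call was lost in 6 of them, without total ChREBP WT replicate 4 or 5 and without total ChREBP KO replicate 1, 2, 3 or 4, with an adjusted p of 0.0114 to 0.101. The second, dimmer Fosl2 probe (chr5:32455088-32455147) differed by -0.01 (adjusted p 0.983), so that the Fosl2 probes disagreed. The dimmer probes of Junb and Ier2 differed by -0.04 (adjusted p 0.965) and 0.02 (adjusted p 0.978).

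The remaining 8 members were not past the threshold, and their intervals were wide. Fos differed by -0.79 (95% interval -2.16 to 0.58, adjusted p 0.582) and Nr4a1 by -0.41 (-1.26 to 0.44, adjusted p 0.666). The differences of Fosb, Junb, Egr1, Egr2, Atf3 and Ier2 lay between -0.20 and 0.12. For Fos they were -0.56, -3.80, 3.27 and -3.05 within wash batches 1 to 4, the positive value being the batch of total ChREBP KO replicate 7. Without that array, an alternative that leaves 4 total ChREBP KO arrays, Nr4a1 was lower by -1.097 (adjusted p 0.0134), Fosl2 by -0.45 (adjusted p 0.0380), and Fos differed by -1.74 (adjusted p 0.0524). In that fit 7.38% of all probes were called at the adjusted threshold. There 8 of 10 members had an unadjusted p under 0.05, against 2 with the array, and the share of all probes at that p was not computed. With that array left out, 9 of 10 members had a fitted level below that of total ChREBP WT, the exception being Jun. The array was singled out as the highest of its group for 10 of 10 members. Its removal thus lowers their KO levels and narrows their spread by the choice itself, and the members move together. These counts are therefore no test of the KO.

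The test of whether total loss acted differently from loss of ChREBPβ found 0 of 10 members at a limma adjusted p under 0.05, with 3.24% of all probes called, and 1 (Fosl2) at an unadjusted p under 0.05, with 12.9% of all probes. Fosl2 had a difference of effects of -0.41 (SE 0.16, unadjusted p 0.0185, adjusted p 0.227). For Fos it was -1.43 (95% interval -3.31 to 0.46, adjusted p 0.60019), an interval too wide to bound the effect closely. Without total ChREBP KO replicate 7 the difference of effects for Nr4a1 was -1.32 (adjusted p 0.0461), the 1 member called there, where 2.94% of all probes were called. In that fit 6 members had an unadjusted limma p under 0.05, and the share of all probes at that p was not computed there. The choice of that array for its high levels bears on these values too.

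Most calls were found between the wild-type mice of the lines, none of which carried the targeted deletion. In total ChREBP WT against ChREBPβ WT, 4 of 10 members were called, all higher in total ChREBP WT, where 22.1% of all probes were called and 14.7% as higher. At an unadjusted p under 0.05 there were 7 of 10, all higher, where 34.1% of all probes reached it and 22.4% in that direction. The median log2 difference of the members was 0.78, against 0.05 over all probes. For Fos, Fosb and Nr4a1 the groups did not overlap, against 5.19% of all probes.

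Fos was higher by 2.52 (SE 0.60, 95% interval 1.28 to 3.77, 5.75-fold, adjusted p 0.00444). Fosb was higher by 2.03 (SE 0.47, 4.08-fold, adjusted p 0.00387) and Nr4a1 by 1.62 (SE 0.37, 3.07-fold, adjusted p 0.00353). The promoter windows of these 3 genes are printed above. Since their groups did not overlap, a positive difference within each of the 4 wash batches was fixed in advance, and only its size is given. For Fos it was 2.30, 4.505, 1.31 and 2.96, for Fosb between 0.97 and 4.71, and for Nr4a1 between 1.05 and 2.07. Wash batch 2 held 1 array against 1. Fosl2 was higher by 0.51 (SE 0.11, 1.42-fold, adjusted p 0.00164), and by 0.82, 0.45, 0.55 and 0.17 in the batches, while its second probe gave 0.14 (adjusted p 0.567). All 4 kept their calls in each of the 25 fits that left out 1 array, and the call of Fosl2 was lost when its probes were averaged (0.32, adjusted p 0.0515). Without total ChREBP WT replicate 3 the differences were 2.15 for Fos, 1.54 for Fosb and 1.42 for Nr4a1.

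Egr1 was next, with a difference of 1.04 (SE 0.39, adjusted p 0.0641), then Egr2 at 0.80 (SE 0.46, adjusted p 0.224) and Atf3 at 0.77 (SE 0.34, adjusted p 0.116). Ier2 gave 0.60 (SE 0.27, adjusted p 0.115), and its dimmer probe 0.69 with an adjusted p of 0.0257. Junb gave 0.39 (SE 0.29, adjusted p 0.374), with 0.45 (adjusted p 0.252) for its dimmer probe, and Jun, the partner protein, gave -0.04 (95% interval -0.34 to 0.26, adjusted p 0.864). Without total ChREBP KO replicate 7, an array of neither group that enters through the shared estimate of spread, Egr1 (adjusted p 0.0104), Atf3 (0.0102) and Ier2 (0.00543) were called as well, 7 of 10 in all, where 21.9% of all probes were called. That array was singled out for its high levels of the members, so leaving it out narrows their spread by the choice itself. The added calls are therefore no test of a difference between the wild types.

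**Figure D5:**
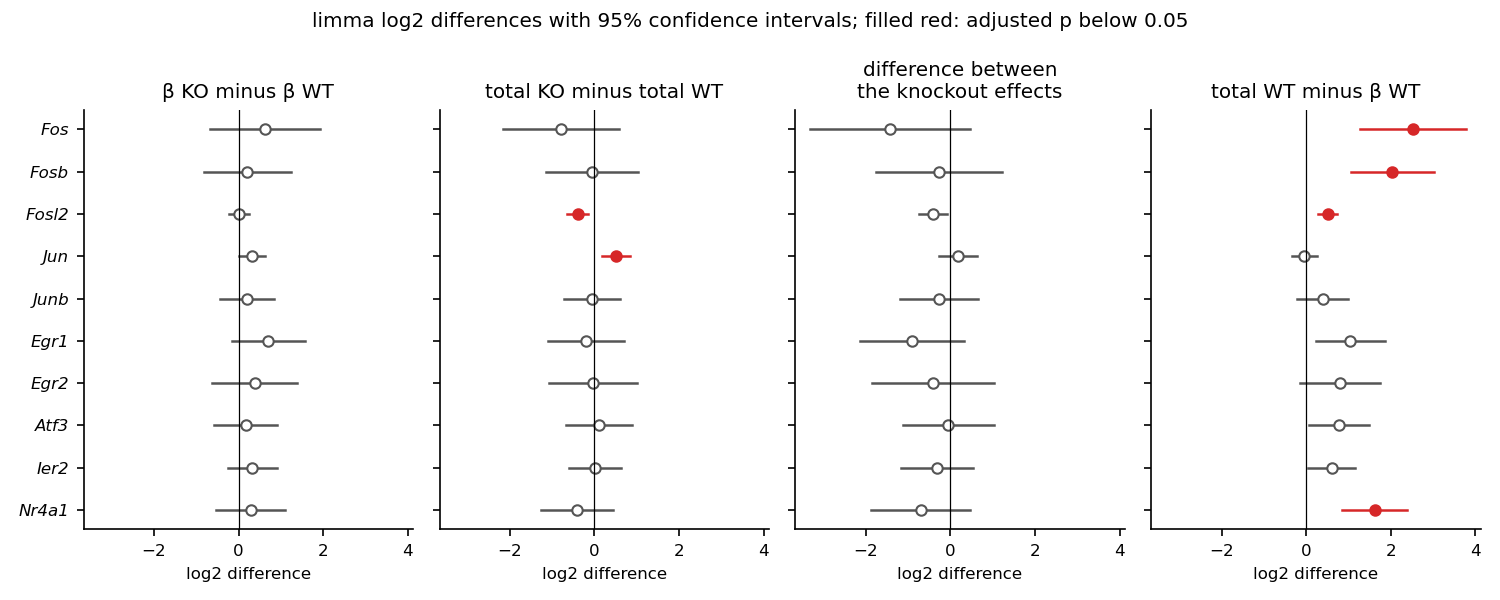
Fitted log2 difference (horizontal axis) of each gene with its 95% confidence interval in the 4 comparisons (panels), filled red where the adjusted p was below 0.05. In the right panel Fos, Fosb, Fosl2 and Nr4a1 are red and above 0, at 2.52, 2.03, 0.51 and 1.62, in the panel of total ChREBP KO against WT Fosl2 (-0.40) and Jun (0.51) are red, and the other panels have none.

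This comparison and the one within the total ChREBP line share the total ChREBP WT arrays, so a high wild-type group raises one and lowers the other. Set side by side, Fosl2 gave 0.51 and -0.40, Fos 2.52 and -0.79, Nr4a1 1.62 and -0.41, Fosb 2.03 and -0.06, and Jun -0.04 and 0.51.

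Among 102 measured genes of the wider immediate early pathway, 23 were higher and 6 lower when total ChREBP WT was set against ChREBPβ WT, where 14.7% and 7.38% of all probes were. AP-1 partners and other bZIP relatives gave 2 of 14 higher and 0 lower, with Maff, a small MAF partner of bZIP proteins, at 1.38 (adjusted p 6.85e-06) and Atf7 at 0.44 (adjusted p 0.000399). Other EGR, NR4A and KLF factors gave 5 of 17 higher and 0 lower. The largest were Bhlhe40 (0.80, adjusted p 0.00387), a clock-linked repressor, Csrnp1 (0.61, adjusted p 0.00913), Klf10 (0.58, adjusted p 0.0146) and Cebpd (0.55, adjusted p 0.00577). Egr3 (0.31, adjusted p 0.581) and Nr4a2 (0.30, adjusted p 0.438) were not past the threshold.

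Other immediate early and feedback genes gave 13 of 38 higher and 4 lower. The largest were Gadd45g (1.22, adjusted p 0.000430), a growth arrest gene, Sgk1 (1.09, adjusted p 2.35e-05), a kinase gene induced by glucocorticoids and serum, Ier3 (1.09, adjusted p 0.000996) and Dusp1 (1.08, adjusted p 0.000187), the phosphatase that switches off MAP kinases. Zfp36, the gene most like the members, was higher by 0.79 (adjusted p 0.00781). Upstream regulators gave 3 of 20 higher and 0 lower, namely Srf (0.31, adjusted p 0.00758), Mef2a (0.23, adjusted p 0.0468) and Crtc1 (0.15, adjusted p 0.0396). Heat shock and tissue dissociation genes gave 0 of 13 higher and 2 lower, Hspb1 (-0.42, adjusted p 0.0378) and Hspa5 (-0.39, adjusted p 0.00890).

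Within the total ChREBP line, 8 of the 102 genes were higher and 13 lower in KO, where 5.48% and 3.47% of all probes were. Maff was lower by a log2 difference of -1.87 (adjusted p 1.06e-07), Bhlhe40 by -1.76 (adjusted p 3.87e-06), Dusp4 by -1.46 (adjusted p 0.000333) and Klf10 by -1.11 (adjusted p 0.000277). Bhlhe40 and Klf10 were the 2 lower genes of the 17 EGR, NR4A and KLF factors, with 0 higher. Of the 14 AP-1 partners, 3 were higher, Jdp2 (0.46), Jund (0.39) and Mafg (0.27), with adjusted p values of 0.0185, 0.0178 and 0.00478, and Maff was the 1 lower. Feedback genes gave 2 of 38 higher and 7 lower, with Ier3 at -1.03 (adjusted p 0.00639) and Gadd45a at -0.95 (adjusted p 0.000639). Upstream regulators gave 1 of 20 higher and 3 lower, and heat shock genes 2 of 13 higher and 0 lower.

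In the difference of effects 1 of the 102 genes was higher and 11 lower, where 3.24% of all probes were called in either direction. The lower genes were led by Maff (-1.77, adjusted p 5.65e-05), Dusp4 (-1.43, adjusted p 0.0169) and Gadd45a (-1.36, adjusted p 0.000812). In ChREBPβ KO against ChREBPβ WT, 0 of the 102 were called in either direction, where 0.00505% of all probes were called. The median log2 difference over the list was 0.08.

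Markers of other cells and tissues were compared between the same groups. Between the wild types 14.7% of all probes were called as higher and 7.38% as lower. Relative to ChREBPβ WT, all 6 liver markers were lower in total ChREBP WT (median -5.09, all called), with a mean log2 deviation of the list at 0.01 to 3.67 in WT and -1.54 to 3.10 in KO of the ChREBPβ line, and at -5.58 to 0.68 in WT and -6.03 to -4.72 in KO of the total ChREBP line. With this liver level as a covariate, the difference between the wild types was 3.38 for Fos (adjusted p 0.0417) and 2.67 for Fosb (adjusted p 0.0420), both called. Nr4a1 gave 1.65 (adjusted p 0.117) and Fosl2 0.35 (adjusted p 0.233), and 6.98% of all probes were called. The liver levels of the wild types overlapped little, so this fit can hardly separate liver level from mouse line. Over all arrays, with group and wash batch removed, the liver list had r = 0.07 with the mean of the members.

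Neutrophil markers gave 2 of 6 higher (S100a9 at 1.47 and Cxcr2 at 0.69) and 1 lower (Csf3r at -0.23) in total ChREBP WT, with a list level of -0.77 to 0.05 in WT and -0.42 to 0.03 in KO of the ChREBPβ line, and of -0.19 to 0.86 in WT and 0.02 to 0.66 in KO of the total ChREBP line. Its r with the mean of the members was 0.38, the highest of the 11 marker lists. On the high arrays the neutrophil level was 0.66 in total ChREBP KO replicate 7, 0.86 in total ChREBP WT replicate 4, 0.53 in replicate 2 and -0.17 in replicate 3, and its part in the results was not tested. Erythrocyte markers gave 2 of 5 measured higher, and kidney markers 2 of 3 measured lower. Lymphocyte and adipocyte markers gave 1 of 8 lower each, and epididymis markers 1 of 3 measured higher. The epididymis list stood at 5.14 in total ChREBP WT replicate 2, one of the high arrays, at 1.24 in replicate 3 and at or below 0.68 on the other arrays, and its part in the results was not tested. Macrophage, endothelial, mesothelial and fat progenitor markers gave 0 called genes in this comparison. Over all probes 14.7% were called as higher and 7.38% as lower there, and a few calls in lists this short can hardly be told apart from these shares. The defining adipocyte genes Adipoq, Plin1 and Fabp4 were measured in all groups, and 3 of 8 adipocyte markers (Plin1, Cidec and Lpl) were higher in total ChREBP KO than in total ChREBP WT. In that comparison 1 fat progenitor marker (Ly6a) and 1 liver marker (Fgb) were lower, where 5.48% of all probes were called as higher and 3.47% as lower.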

How the data were processed

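Transcript levels were measured in pgWAT of 25 mice, 1 array each, in 4 groups taken from the sample titles. The authors labelled total RNA with Cy3, hybridised it to Agilent SurePrint G3 mouse arrays and measured spots with Feature Extraction 10.10.1.1, per the labels and the study's methods. The deposited files held the median intensity of each spot, without background subtraction, with local background and flags. The authors' deposited series table held quantile-normalized log2 values and served as an alternative. Over the members' probes and arrays it differed from the levels used here by at most 0.0156.

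Spots found, positive and well above background on 21 or more of the 25 arrays, or on 75% or more of those in any group, were kept (42315 of 59305). Outlier-flagged spots were set to missing, log2 median intensity was quantile-normalized, and replicated probes were merged by their median, which left 39619 probes. The filter is that of the study's methods, with its array numbers adjusted to these 25. limma 3.58.1 under R 4.3.3 fitted group means plus a fixed wash batch effect (18 residual degrees of freedom, 2.50 prior). Adjusted p-values are Benjamini-Hochberg over all tested probes, and a probe was called below 0.05. A gene was represented by its brightest kept probe, and other kept probes of Fosl2, Junb and Ier2 are given for the comparisons of total ChREBP KO with WT and of the wild types. The fit was tested on simulated data. Confidence intervals are 95% intervals of the fitted differences. Residuals for the correlations had group and wash batch removed. Mice came from several litters, and p-values measure the spread between these mice. The number of arrays limits the precision.

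Named genes were all 10 members, at most the 4 called genes with the largest difference per pathway list, and the 5 genes most like Fos and most like the mean of the members. The values of Zfp36, Egr3 and Nr4a2 between the wild types, and the markers named by symbol, were added after they were seen. The members, lists and tests were chosen with earlier results of these data known. Promoter sequences came from a RefSeq table of mouse build GRCm38.p6, with motifs searched on both strands of the 250 bases before the start site. The alternatives were other values, scalings, filters, batch terms, blocks, weights and left-out arrays. 2 further settings, leaving out the 2 arrays farthest from the median and a liver marker covariate, were chosen after seeing the data.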

Additional observations from a re-analysis of the deposited data

Results flagged for a closer look

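In 9 of the 40 gene and group sets tested, 1 array stood apart from the rest of its group by Dixon's criterion, where chance gives about 1 in 20. The measure is the gap from the extreme array to its nearest neighbour as a share of the group's range, and the sets share arrays, so these are not independent. In total ChREBP KO, replicate 7 was the high array for 8 genes, with a share of 0.741 for Fosb, 0.75004 for Jun, 0.89954 for Junb, 0.731 for Egr1, 0.853 for Egr2, 0.826 for Atf3, 0.803 for Ier2 and 0.772 for Nr4a1. In ChREBPβ KO, replicate 2 was the low array for Fos, with a share of 0.764.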

How the results depend on the processing

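Over the alternatives other than leaving out 1 array, the count of members called in ChREBPβ KO against WT stayed at 0 and that of the difference of effects at 0. In total ChREBP KO against WT it fell from 2 to 1 (Fosl2) with 75th percentile scaling of the processed signal, normexp background correction, no filter on dim probes, no wash batch term, scan day in its place, array quality weights or only the groups compared. It was 1 (Jun) with probes averaged per gene, and also with probes required on all arrays, where Fosl2 was not tested. It was 3 (Fosl2, Jun and Nr4a1, the last at -0.90 with an adjusted p of 0.0417) without the 2 arrays farthest from the median. In these fits 5.75% to 13.5% of all probes were called. Between the wild types it moved from 4 to 7 with only the groups compared or without the 2 arrays farthest from the median, to 2 (Fos and Fosb) with the liver level as a covariate, and to 1 (Fos) with probes required on all arrays, where Fosb, Fosl2 and Nr4a1 were not tested. In these fits 18.2%, 19%, 6.98% and 23.9% of all probes were called. The 2 farthest arrays were picked by the members' own values, so the counts without them are no test. It was 3 with probes averaged per gene, where the call of Fosl2 was lost and 22.9% of genes were called. Leaving out 1 array gave 0 to 0 calls in ChREBPβ KO against WT, 0 to 2 in total ChREBP KO against WT, 0 to 1 for the difference and 4 to 7 between the wild types. In the same order, 0% to 0.197%, 6.33% to 9.59%, 2.5% to 3.9% and 17.3% to 23.2% of all probes were called. The median r among members was 0.36 without the 2 farthest arrays, 0.20 within the ChREBPβ line and 0.87 within the total ChREBP line. The cause of these changes was not tested.

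Same-numbered arrays of a line showed no steady likeness in their deviations (r from -0.43 to 0.38, and from -0.62 to 0.72 over the members). Such values cannot tell whether the numbers pair mice. The replicate block gave 0 calls as a fixed term in total ChREBP KO against WT and 0 between the wild types, with 5 residual degrees of freedom left and 1.62% and 0.0126% of all probes called, and changed no count as a random term.

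Some differences that were not called changed sign. In ChREBPβ KO against WT, Fosl2 gave -0.00081298 with 75th percentile scaling, -0.014 with normexp, -0.00693 without wash batch, -0.049 with the fixed replicate block, -0.014 with array weights and -0.048 to 0.051 without 1 array. In total ChREBP KO against WT, Ier2 gave -0.0008915 without wash batch, -0.018 with the fixed replicate block, -0.26 with array weights, -0.33 without the 2 farthest arrays and -0.51 to 0.20 without 1 array. Atf3 gave -0.22 with array weights, -0.28 without the 2 farthest arrays and -0.51 to 0.37 without 1 array. Egr2 gave 0.72 with the fixed replicate block and -0.72 to 0.31 without 1 array. Without 1 array Fosb ranged over -0.71 to 0.48, Junb over -0.55 to 0.12 and Egr1 over -0.85 to 0.10. For the difference of effects, Egr2 gave 0.23 and Atf3 0.11 with the fixed replicate block, and without 1 array Fosb ranged over -0.86 to 0.25 and Atf3 over -0.62 to 0.19. Between the wild types, Jun gave 0.025 with 75th percentile scaling, 0.19 with the fixed replicate block and -0.17 to 0.017 without 1 array.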
